A study of Arabidopsis thaliana with 20 samples.

Results

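ARGONAUTE proteins hold small RNAs and use them to find transcripts or chromatin to silence, and Arabidopsis thaliana has 10 genes for them. Described here are the 8 ARGONAUTE genes other than AGO4 and AGO6, namely AGO1, AGO2, AGO3, AGO5, AGO7, AGO8, AGO9 and AGO10, taken by locus from 27655 counted genes, by a rule that names the loci and uses no measured value. RNA was sequenced from male meiocytes and from seedlings of 5 genotypes, with 2 libraries for each of the 10 groups. Of the mutant lines, pol2a-1 and pol2a-2 both have mutations in POL2A, whose product is the catalytic core of DNA polymerase epsilon. The line suvh2suvh9 is a double mutant of SUVH2 and SUVH9, which bind methylated DNA and help to place RNA polymerase V there, the triple mutant is pol2a-1suvh2suvh9, and WT is the wild type. Meiocytes came from floral buds at stages 9 to 10, with 300 to 400 pooled meiocyte masses per replicate, and seedlings were 20 days old, with 4 to 5 pooled plants per replicate. All plants grew at 20 °C with 16 h of light. For libraries with pol2a-2 in the title another field gives pol2a-1, and they were kept here as a separate group. Each level below is in CPM, the gene's count scaled to the library's total count, and levels of different genes are compared only after division by transcript length in kilobases (CPM per kb).

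Plant ARGONAUTE proteins fall into 3 clades. In the first, AGO1 carries most microRNAs and cuts their targets, AGO10 captures miR165 and miR166 in the shoot apex and so spares the HD-ZIP III leaf polarity genes, and AGO5 acts in reproductive cells. In the second, AGO2 and AGO3 are neighbouring genes, of which AGO2 serves in antiviral defence and has been linked to repair of DNA breaks, and AGO7 binds miR390 to start the trans-acting siRNAs that restrain ARF3 and ARF4. In the clade of AGO4, which directs DNA methylation, AGO9 is known from the ovule, where it limits which cells enter the germline, and AGO8 is often regarded as a pseudogene. By these roles AGO5, AGO8 and AGO9 are set here as germline members, and AGO1, AGO2, AGO3, AGO7 and AGO10 as vegetative or general ones. Some members are themselves microRNA targets, AGO1 of miR168 and both AGO2 and AGO3 of miR403.

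The sequences behind these 2 feedback links are shown, because they separate members whose transcripts carry such a site from those that do not. They were read from the RefSeq annotation of TAIR10.1, and the capitals mark the seed of the microRNA, bases 2 to 8 from its 5′ end, and the bases facing it in the site. The mature miR168a-5p maps to chr4:10578652-10578672 on the plus strand and has the same sequence as miR168b-5p, and its best match in AGO1 lies in the coding sequence at chr1:17891529-17891549 on the minus strand. The mature miR403-3p maps to chr2:19415154-19415174 on the plus strand, and its best matches in AGO2 and AGO3 lie in their 3′ UTRs, on the plus strand, at chr1:11185223-11185243 and chr1:11192399-11192419.
miR168a-5p: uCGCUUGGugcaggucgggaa
AGO1 site: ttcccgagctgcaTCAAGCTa
miR403-3p: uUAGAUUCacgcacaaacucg
AGO2 site: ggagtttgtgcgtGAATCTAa
AGO3 site: gatgtttgtgcgtGAATCTAa

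Against miR168a-5p, the AGO1 site left 3 of 21 bases without a Watson-Crick pair, 1 of them a G:U pair, and 2 of the 3 lie in the seed. The next best match among the 10 ARGONAUTE transcripts, in AGO2, left 6. Against miR403-3p, the AGO2 site left 1 base and the AGO3 site 3 bases without such a pair, with the whole seed paired in both, and the next best match, in AGO4, left 6. Such a match describes the letters and is no measure of cleavage. The microRNA precursors were not analysed here.

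The 8 genes lie on chromosomes 1, 2 and 5 (TAIR10.1). AGO1 (AT1G48410) spans 17885633 to 17892632 of chromosome 1 on the minus strand, and AGO7 (AT1G69440) spans 26101407 to 26105328 of the same chromosome and strand. AGO2 (AT1G31280, 11181504 to 11185396) and AGO3 (AT1G31290, 11188120 to 11192585) follow each other on the plus strand of chromosome 1 with 2723 bases and 0 annotated genes between them. AGO5 (AT2G27880) spans 11871378 to 11876989 of chromosome 2, plus strand. On chromosome 5, AGO10 (AT5G43810) spans 17610744 to 17616907 and AGO9 (AT5G21150) 7192239 to 7198381 on the plus strand, and AGO8 (AT5G21030) spans 7139817 to 7144272 on the minus strand, 47966 bases from AGO9. Exons of a gene summed to between 2640 bases (AGO8) and 4231 bases (AGO10). No exonic base of the 8 genes overlapped another annotated gene, and 0% of their 100-base windows recurred elsewhere in the genome.

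Total counts per library ran between 11932325 and 20941920 in meiocytes and between 11906055 and 34451852 in seedlings. The targeted genes followed the labels for SUVH9, which had at most 0.059 CPM in suvh2suvh9 and triple mutant meiocytes and at most 1.16 CPM in seedlings of both, against at least 6.54 CPM in WT meiocytes and at least 29.8 CPM in WT seedlings. SUVH2 RNA was still counted, at 8.92 to 15.5 CPM in suvh2suvh9 and triple mutant meiocytes against 38.4 to 41.5 CPM in WT meiocytes, and at 3.33 to 4.31 CPM in seedlings of both against 7.95 to 10.8 CPM in WT seedlings, and POL2A RNA was still counted in every pol2a library. Meiocyte markers (8 genes) summed to between 2960 and 3560 CPM in meiocytes, against 12.5 to 42.5 CPM in seedlings, and leaf markers (9 genes) to between 271 and 1480 CPM in meiocytes, against 58800 to 92200 CPM in seedlings. Tapetum markers (14 genes) summed to between 168 and 446 CPM in meiocytes, and the WT meiocytes, at 168 and 228 CPM, had the lowest group; carpel and ovule markers (5 genes) reached 10.5 CPM at most in meiocytes, with INO at 0 in all 10 libraries, and shoot meristem markers (4 genes) reached 3.83 CPM, with CLV3 at 0. Chloroplast genes held 0.0215% to 0.0443% of the counts in suvh2suvh9 and triple mutant seedlings, against 2.11% to 2.42% in the other 6 seedling libraries.

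Meiocytes and seedlings differed in the shares that single genes held of the ARGONAUTE transcripts. In meiocytes AGO9 alone supplied a median of 55.9% of the summed CPM per kb of all 10 ARGONAUTE genes (range 47.7% to 59.8% over 10 libraries), against 0.403% in seedlings (0.0826% to 1.13%). AGO1 supplied 26.7% in meiocytes (20.3% to 30.8%), against 54.3% in seedlings (47.4% to 62.8%), and AGO5 supplied 11.4% in meiocytes and 0.174% in seedlings. AGO10, with a median of 0.326% in meiocytes, supplied 11.6% to 15.7% in seedlings, and AGO2 had 0.960% in meiocytes and 6.29% in seedlings. The sum itself was higher in meiocytes, with a median of 563 CPM per kb (438 to 682), against 76.8 CPM per kb in seedlings (50.9 to 101).

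**Figure D1:**
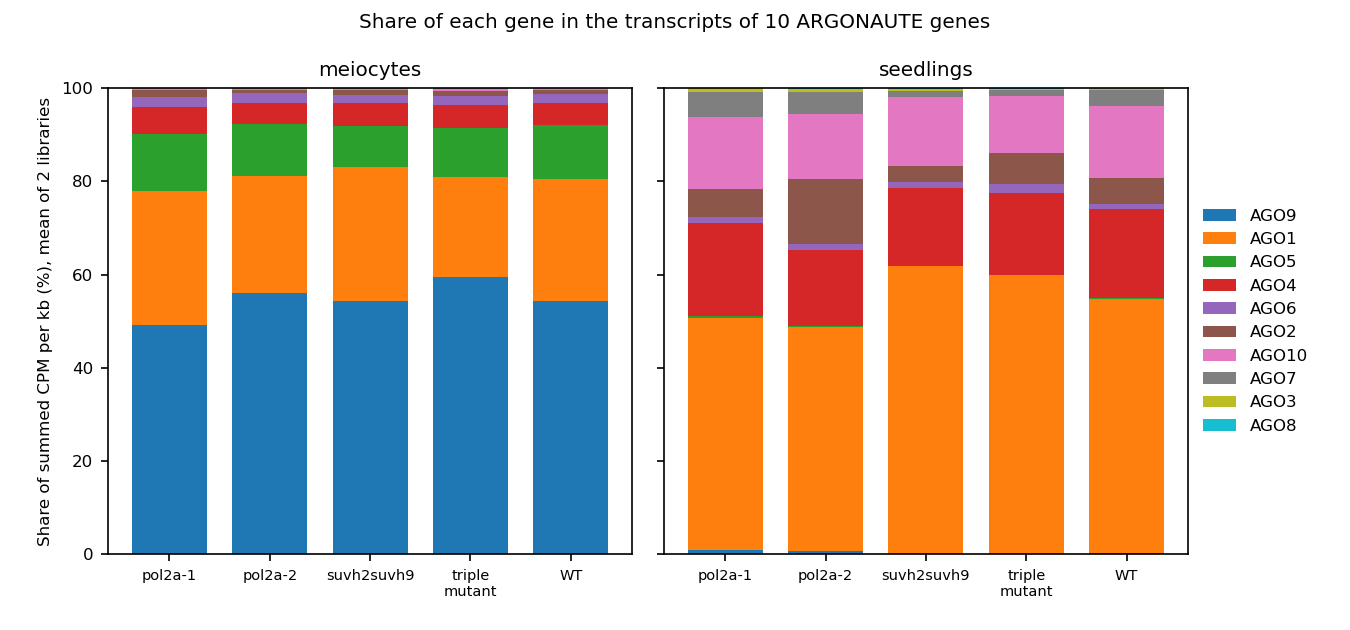
Stacked bars give the share (%) of each gene in the summed CPM per kb of the 10 ARGONAUTE genes, as the mean of 2 libraries, for 5 genotypes in meiocytes (left) and seedlings (right). AGO9 (blue) and AGO1 (orange) together fill 81.1% of the meiocyte bars at the median, and AGO1 alone fills 54.3% of the seedling bars.

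From AGO9 down to AGO7, the order of the levels was the same in the meiocytes of all 5 genotypes. That of AGO3 and AGO8, which came last, varied. In WT meiocytes AGO9 averaged 362 CPM per kb, AGO1 175, AGO5 76.5, AGO2 5.77, AGO10 1.79 and AGO7 0.360 CPM per kb, and no 2 neighbours in this order overlapped between their libraries in any genotype. AGO4 and AGO6 stood between AGO5 and AGO2. Within a library, AGO9 exceeded AGO1 by a ratio of CPM per kb of at least 1.62 and at most 2.92. In WT seedlings AGO1 came first with 39.5 CPM per kb, then AGO4, AGO10 with 11.3, AGO2 with 3.93 and AGO7 with 2.47 CPM per kb, each without overlap with its neighbour. Below these, AGO9, AGO3, AGO5 and AGO8 overlapped their neighbours in WT seedlings, at 0.290, 0.204, 0.144 and 0.0330 CPM per kb. In pol2a-2 seedlings AGO2 reached AGO10, with overlapping libraries and means of 10.07 and 10.15 CPM per kb.

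**Figure D2:**
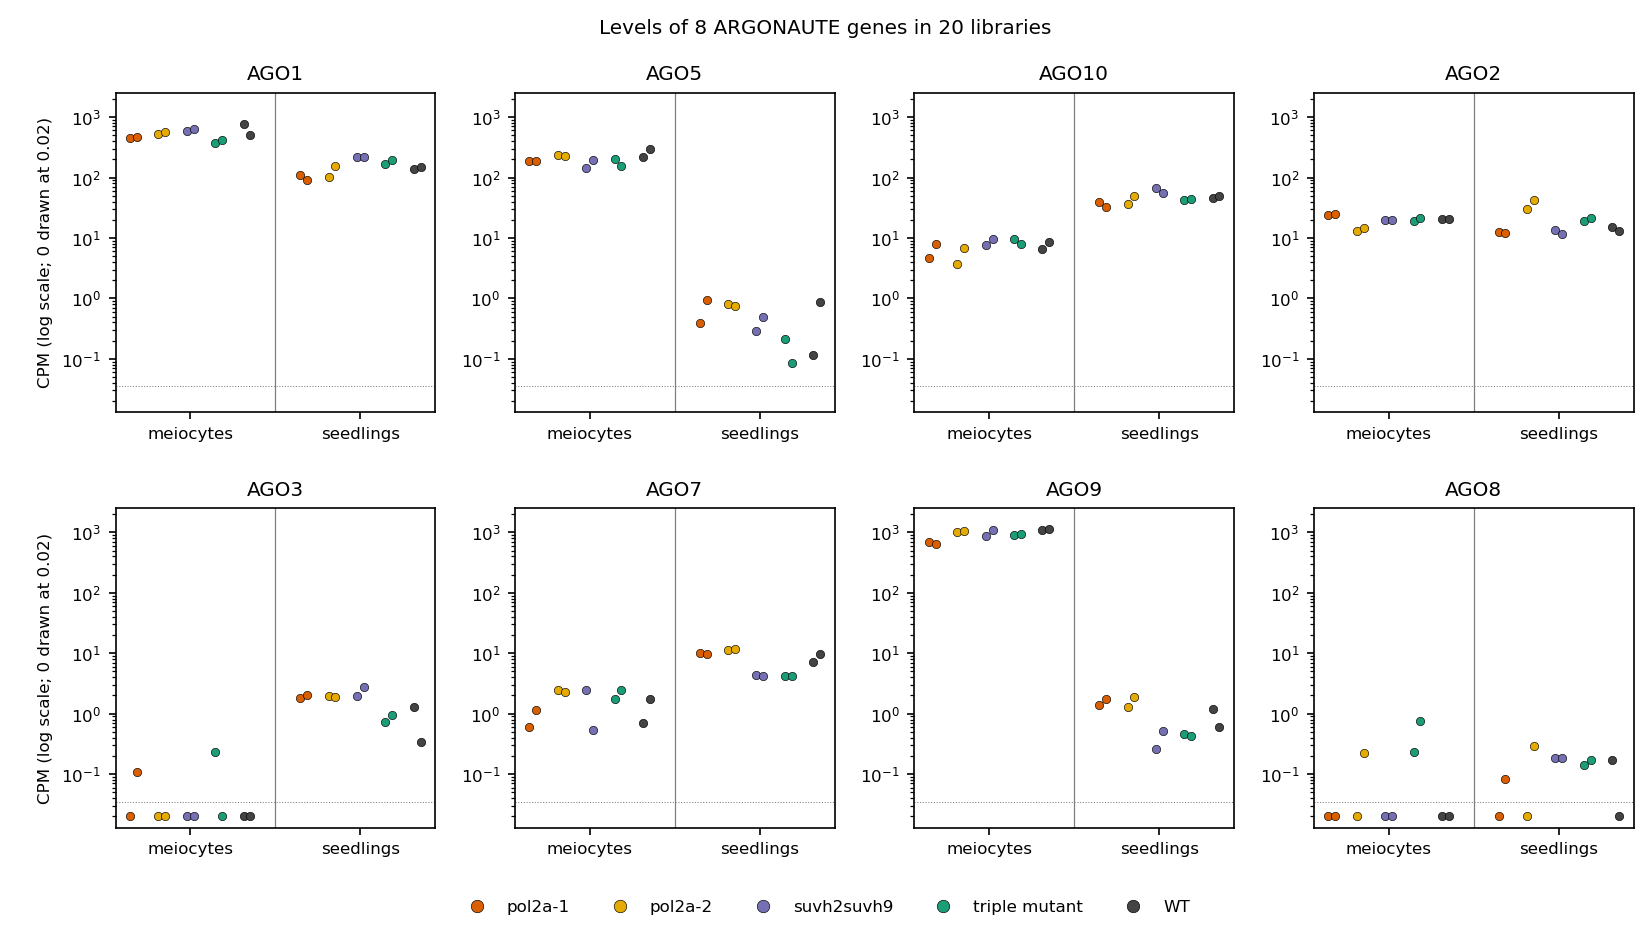
Each point is the level of a gene in 1 library in CPM on a log scale, with 5 genotypes side by side in meiocytes (left of the grey line) and seedlings (right); libraries with 0 counts are drawn at 0.02, under the dotted line. AGO9, AGO5 and AGO1 stand higher in meiocytes, AGO10, AGO7 and AGO3 lower, and AGO2 at levels that overlap.

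The germline members AGO9 and AGO5 had the widest gaps between the tissues. AGO9 had 681 and 649 CPM in pol2a-1 meiocytes, 858 and 1075 in suvh2suvh9, 1027 and 1039 in pol2a-2, 913 and 937 in the triple mutant, and 1107 and 1118 in WT. In seedlings it had 1.39 and 1.76 CPM in pol2a-1, 0.257 and 0.525 in suvh2suvh9, 1.297 and 1.91 in pol2a-2, 0.469 and 0.435 in the triple mutant, and 1.19 and 0.596 in WT, from 7 to 45 counts a library. The lowest meiocyte library thus stood above the highest seedling library in CPM by a wide margin, and WT meiocytes exceeded WT seedlings 974-fold (log2 9.93 ± 0.34 SE, adjusted p = 2.20e-12, edgeR quasi-likelihood test). The difference was 8.55 ± 0.33 in pol2a-1, 9.05 ± 0.33 in pol2a-2, 10.93 ± 0.36 in suvh2suvh9 and 10.50 ± 0.36 in the triple mutant, all called; the WT value was 10.56 without seedling replicate 1. Called means an adjusted p under 0.05 over all genes and transposable elements tested. Since these are bulk samples, fewer cells of a type and less RNA per cell cannot be told apart.

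AGO5 had 185 and 184 CPM in pol2a-1 meiocytes, 143 and 197 in suvh2suvh9, 232 and 229 in pol2a-2, 199 and 156 in the triple mutant, and 218 and 299 in WT. Seedlings had 0.398 and 0.924 CPM in pol2a-1, 0.294 and 0.487 in suvh2suvh9, 0.819 and 0.762 in pol2a-2, 0.216 and 0.0871 in the triple mutant, and 0.116 and 0.857 in WT. Those seedling values rest on 2 to 23 counts a library. WT meiocytes exceeded WT seedlings 459-fold (log2 8.84 ± 0.52 SE, adjusted p = 2.14e-10), and the difference was 7.99 ± 0.52 in pol2a-1, 7.94 ± 0.50 in pol2a-2, 8.42 ± 0.52 in suvh2suvh9 and 9.61 ± 0.57 in the triple mutant, all called. The low seedling counts made single libraries weigh: the WT value was 7.95 without seedling replicate 1 and 10.73 without seedling replicate 2, that in pol2a-1 8.67 without seedling replicate 2, and that in the triple mutant 10.45 without seedling replicate 1. AGO5 and AGO9 had the most alike patterns over the 20 libraries after AGO10 with AGO3 and AGO10 with AGO7: the root mean square difference of their mean-centred log2 CPM was 0.929, against 0.808 for AGO10 with AGO3, 0.876 for AGO10 with AGO7 and 6.77 for AGO3 with AGO9.

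AGO8, the remaining germline member, was near the limit of detection in both tissues. It had 4 and 13 counts in triple mutant meiocytes, 0 and 3 in pol2a-2 meiocytes and 0 in the other 6 meiocyte libraries. In seedlings it had 0 and 1 counts in pol2a-1, 5 and 5 in suvh2suvh9, 0 and 7 in pol2a-2, 4 and 4 in the triple mutant and 6 and 0 in WT. A count of 0 in both WT meiocyte libraries allows a level of up to 0.0794 CPM (3 counts over the group), and all 6 WT seedling counts came from 1 library, so that no fold is given. In the triple mutant the ratio of seedlings to meiocytes, over pooled counts, was 0.317 (95% interval 0.119 to 0.776). The libraries had 0.232 and 0.768 CPM in meiocytes against 0.144 and 0.174 CPM in seedlings. Since 13 of the 17 meiocyte counts came from 1 library, no direction is drawn. AGO8 did not pass the filter on low counts in any fit and was not tested. Floors and intervals cover counting error only.

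AGO1, the main carrier of microRNAs, was higher in meiocytes in every genotype, by a margin that varied. In meiocytes it had 446 and 474 CPM in pol2a-1, 580.4 and 624 in suvh2suvh9, 526 and 571 in pol2a-2, 371 and 421 in the triple mutant, and 765 and 509 in WT. In seedlings it had 109 and 91.3 CPM in pol2a-1, 222 and 219 in suvh2suvh9, 100.4 and 156 in pol2a-2, 168 and 198 in the triple mutant, and 138 and 149 in WT. The tissues did not overlap, and the triple mutant held the lowest meiocyte levels. Meiocytes exceeded seedlings 3.54-fold in WT (log2 1.82 ± 0.20 SE, adjusted p = 4.08e-07), by 2.02 ± 0.20 in pol2a-1, 1.85 ± 0.20 in pol2a-2, 1.12 ± 0.20 in suvh2suvh9 and 0.64 ± 0.20 in the triple mutant (adjusted p = 0.00818). The call in the triple mutant was lost without its meiocyte replicate 2 (adjusted p = 0.0586), without its seedling replicate 1 (0.0761), and when no filter on low counts was used (0.45 on the log2 scale, 0.0861).

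AGO10, the closest relative of AGO1 in the clade, ran the other way. It had 4.61 and 7.93 CPM in pol2a-1 meiocytes, 7.60 and 9.73 in suvh2suvh9, 3.69 and 6.90 in pol2a-2, 9.45 and 7.97 in the triple mutant, and 6.52 and 8.60 in WT. Its seedling levels were 39.1 and 32.8 CPM in pol2a-1, 66.8 and 56.1 in suvh2suvh9, 36.2 and 49.7 in pol2a-2, 42.3 and 43.6 in the triple mutant, and 46.7 and 49.2 in WT. WT meiocytes were 7.78-fold lower than WT seedlings (log2 -2.96 ± 0.31 SE, adjusted p = 1.72e-07), and the log2 difference lay between -3.25 (pol2a-2) and -2.71 (pol2a-1) in the mutants, called in each. In CPM per kb, AGO1 exceeded AGO10 by a ratio between 68.9 and 136 in WT meiocytes, against 3.44 to 3.52 in WT seedlings. Shoot meristem markers moved with AGO10 between the tissues (at most 3.83 CPM summed in meiocytes, against 11.2 to 24.1 CPM in seedlings), and their part in its difference was not tested.

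AGO7, which starts the trans-acting siRNA pathway, was also lower in meiocytes. It had 0.610 and 1.16 CPM in pol2a-1 meiocytes, 2.50 and 0.534 in suvh2suvh9, 2.43 and 2.28 in pol2a-2, 1.74 and 2.48 in the triple mutant, and 0.712 and 1.77 in WT. Seedling levels of AGO7 were 10.2 and 9.74 CPM in pol2a-1, 4.37 and 4.196 in suvh2suvh9, 11.4 and 11.9 in pol2a-2, 4.19 and 4.14 in the triple mutant, and 7.26 and 9.73 in WT. WT meiocytes were 8.17-fold lower than WT seedlings (log2 -3.03 ± 0.55 SE, adjusted p = 8.90e-05). The log2 difference was -3.67 ± 0.57 in pol2a-1, -2.55 ± 0.53 in pol2a-2, -1.80 ± 0.53 in suvh2suvh9 and -1.46 ± 0.52 in the triple mutant. The WT value was -3.96 without meiocyte replicate 2, and that in suvh2suvh9 was -3.33 without its meiocyte replicate 1. In suvh2suvh9 the call was lost without its meiocyte replicate 2 (-1.11, adjusted p = 0.0583) and when only the groups compared were fitted (0.0544), and in the triple mutant without its meiocyte replicate 1 (0.108) or seedling replicate 1 (0.0611).

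The neighbours AGO2 and AGO3 differed from each other. AGO2 had 23.7 and 24.4 CPM in pol2a-1 meiocytes, 19.6 and 20.1 in suvh2suvh9, 13.1 and 14.6 in pol2a-2, 19.1 and 21.2 in the triple mutant, and 20.6 and 21.0 in WT. In seedlings it had 12.3 and 12.3 CPM in pol2a-1, 13.4 and 11.7 in suvh2suvh9, 30.4 and 42.1 in pol2a-2, 18.7 and 21.3 in the triple mutant, and 15.5 and 12.8 in WT. The pol2a-2 libraries had the lowest levels in meiocytes and the highest in seedlings. Between the tissues AGO2 was not called in WT (log2 0.24 ± 0.21 SE, adjusted p = 0.285) or suvh2suvh9 (0.32 ± 0.21, 0.162); it was higher in pol2a-1 meiocytes (0.79 ± 0.21, 0.00283) and lower in pol2a-2 meiocytes (-1.63 ± 0.21, 2.88e-06) and in those of the triple mutant (-0.47 ± 0.21, 0.0486). The call in the triple mutant was lost without any 1 of 14 libraries, namely those of pol2a-1, suvh2suvh9 and the triple mutant in both tissues and both WT seedling libraries (adjusted p between 0.0521 and 0.194). Without a filter on low counts the calls in pol2a-1 (0.0884) and the triple mutant (0.0625) were lost, and an offset for gene length gave calls in WT (0.54, 0.0217) and suvh2suvh9 (0.62, 0.0108) and ended that in the triple mutant (-0.21, 0.340), as did leaving out organelle genes (0.0526).

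AGO3 was hardly detected in meiocytes. It had 2 counts in 1 of the pol2a-1 meiocyte libraries, 4 counts in 1 of the triple mutant libraries and 0 in the other 8. In seedlings it had 1.79 and 2.02 CPM in pol2a-1, 1.98 and 2.73 in suvh2suvh9, 1.98 and 1.86 in pol2a-2, 0.722 and 0.958 in the triple mutant, and 1.31 and 0.336 in WT, from 9 to 73 counts a library. The groups did not overlap. AGO3 was at least 11.1-fold lower in WT meiocytes, 16.2-fold in pol2a-2 and 28.6-fold in suvh2suvh9, each against a floor of 3 counts over the meiocyte group. The WT limit was 4.23-fold with seedling replicate 2 alone, which had 9 counts. With 2 counts in pol2a-1 meiocytes, seedlings exceeded them by a ratio of 34.2 (95% interval 8.99 to 290.0), and with 4 counts in the triple mutant by 7.08 (2.57 to 27.2). AGO3 did not pass the filter on low counts in the meiocyte fit and entered the 20-library fit through its seedling counts. A call of lower in meiocytes was thus largely fixed in advance and adds no support. The test called the difference in all 5 genotypes, and that in the triple mutant (adjusted p = 0.0192) was lost without its meiocyte replicate 2 (0.110) or its seedling replicate 2 (0.0631).

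Of the 7 members tested between the tissues, 6 were called in WT, 3 higher and 3 lower in meiocytes, with 76.8% of all 24418 features called in that comparison (35.2% higher, 41.7% lower). In pol2a-1, 4 were higher and 3 lower (75.4% of features called; 35.7% higher, 39.7% lower), and in pol2a-2, 3 were higher and 4 lower (75%; 36.3% and 38.7%). In suvh2suvh9, 3 were higher and 3 lower (75.6%; 34.1% and 41.5%), and in the triple mutant 3 were higher and 4 lower (75.5%; 35.2% and 40.3%). The members' counts thus stand near the background. Among the 7 members AGO9 and AGO5 had the largest gaps by value, and gap sizes were not compared over all features. Genes outside the family had wide gaps too, such as KOM, with 503 CPM in meiocytes and 0.634 CPM in seedlings. Over all 10 libraries of each tissue, 3 of the 7 lay higher and 3 lower without overlap, as did 32% and 30.8% of all features (62.9% in all). AGO3, counted among the lower members in each genotype, passed the filter through its seedling counts alone. The median log2 difference of the 7 in WT was 0.24, beside -0.20 for all features.

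**Figure D3:**
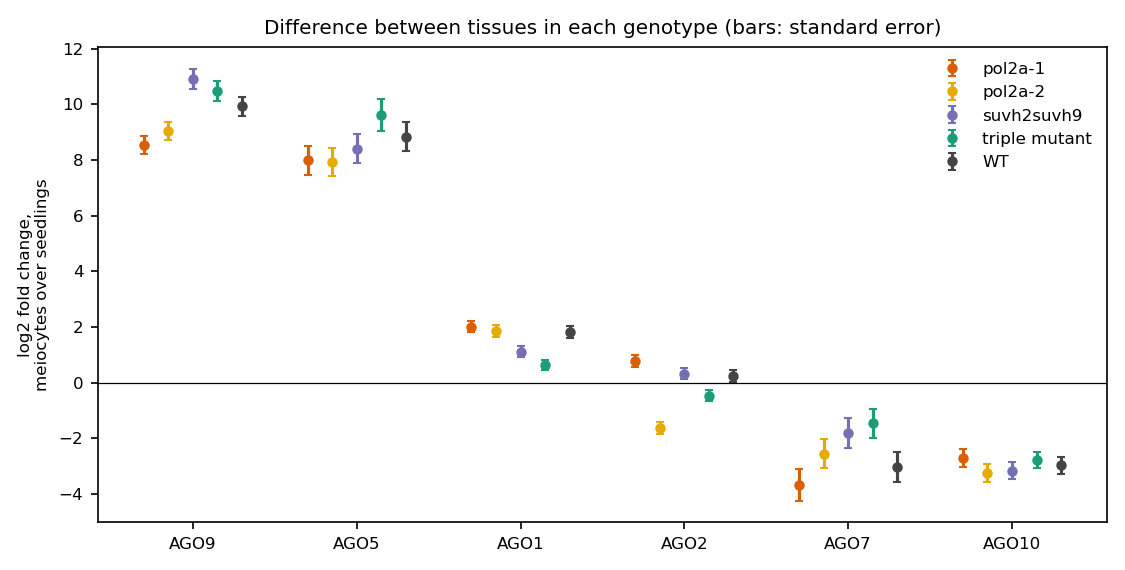
Points give the log2 fold change of meiocytes over seedlings for 6 members in each of 5 genotypes, with bars for the standard error. AGO9 and AGO5 lie between 7.94 and 10.93, AGO1 between 0.64 and 2.02, AGO2 on both sides of 0, and AGO7 and AGO10 between -3.67 and -1.46.

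The genes that make and use the small RNAs also differed between the tissues, as did 76.8% of all features in WT (35.2% higher and 41.7% lower in meiocytes). In WT, 9 of 16 small RNA biogenesis genes were higher in meiocytes and 5 lower (median log2 0.70, beside -0.20 for all features). HYL1, the partner of DCL1 in microRNA processing, was higher by 3.39 ± 0.25, DCL4, which cuts trans-acting siRNAs, by 2.51 ± 0.19, and the processing factor SE by 1.99 ± 0.19, whereas DCL1, the microRNA dicer, had a log2 difference of -3.91 ± 0.45. Of 7 genes of secondary siRNA synthesis 6 were higher (median 1.32), among them SGS3 (3.24 ± 0.25), the partner of RDR6, SDE5 (2.96 ± 0.28), SDE3 (2.09 ± 0.27) and TEX1 (1.32 ± 0.20). Of 5 genes for AGO1 loading and turnover, AMP1, which acts in translational repression by microRNAs (-4.18 ± 0.24), and FBW2, an F-box protein that marks AGO1 for degradation (-3.96 ± 0.29), were lower, and 0 were higher. With a length offset SQN and SUO of this list were called higher as well, and in the biogenesis list DRB4 and HEN1 lost their calls while HST gained one; DESeq2 size factors ended the call of DCL2. No called member of these lists turned its sign under either scaling.

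Genes that small RNAs restrain were mostly lower in meiocytes. Of all features, 41.7% were called lower and 35.2% higher in WT meiocytes. Leaf markers were lower too, as given above, and the part of tissue make-up in these values was not tested. All 5 HD-ZIP III genes, the targets of miR165 and miR166 that AGO10 protects, were lower in WT meiocytes (median log2 -5.22): REV -5.22 ± 0.41, PHB -6.09 ± 0.48, CNA -4.69 ± 0.39, HB8 -6.48 ± 0.60 and PHV -3.50 ± 0.36. All 3 targets of the trans-acting siRNAs were lower, ARF3 by -2.96 ± 0.35, ARF4 by -3.16 ± 0.21 and ARF2 by -1.05 ± 0.29 on the log2 scale. Of 26 other microRNA targets 19 were lower and 4 higher (median -2.41). TOE1 (-5.87 ± 0.35) and TCP3 (-3.81 ± 0.31) were among the lower ones, and ARF17 (4.87 ± 0.20) and MYB33 (2.38 ± 0.20), targets of miR160 and miR159, among the higher ones. These directions held with DESeq2 size factors, with 19 lower and 4 higher, and with a length offset, with 17 lower and 5 higher. In the mutants the HD-ZIP III list had 5 of 5 lower in each genotype, the trans-acting siRNA targets 2 or 3 of 3, and the other targets 16 to 18 lower and 4 or 5 higher. Of all features, 38.7% to 41.5% were called lower and 34.1% to 36.3% higher in these comparisons.

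Mutants were compared with WT in each tissue to ask whether the members differed in lines with mutations in POL2A or in SUVH2 and SUVH9. These comparisons share the WT libraries. In meiocytes none of the 6 tested members was called in any mutant by edgeR. The background was small as well: 0.646% of 21214 features were called in pol2a-1, 0.646% in pol2a-2, 0.00471% in suvh2suvh9 and 0.0613% in the triple mutant. At an unadjusted p under 0.05 there were 3 members in pol2a-1, 1 in pol2a-2, 1 in suvh2suvh9 and 3 in the triple mutant. In the same order, DESeq2 called 1, 0, 0 and 1. The shares of all features above are edgeR calls at an adjusted p. Shares at the unadjusted cutoff or by DESeq2 are not given, here or for later comparisons. Member counts of those kinds thus have no background and are not read as a shift of the family.

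The lowest adjusted p-values in meiocytes belonged to AGO9, AGO1 and AGO5. AGO9 in pol2a-1, at 681 and 649 CPM against 1107 and 1118 CPM in WT, had a log2 difference of -0.73 ± 0.15 SE (adjusted p = 0.0611, edgeR). Over the other settings its log2 value lay between -0.74 and -0.43, with an adjusted p between 0.00662 (DESeq2) and 0.606 (edgeR). Those settings include pol2a-1 and pol2a-2 joined as 1 group, which sets another group against WT. AGO9 passed with DESeq2 and, by edgeR, with no filter on low counts (0.0250). Leaving out 1 library gave values between -0.80 and -0.66. AGO1 in the triple mutant, at 371 and 421 CPM against 765 and 509 CPM in WT, had -0.81 ± 0.18 (0.140), and passed with DESeq2 (0.0123). Over the other settings its log2 value lay between -0.85 and -0.71, with an adjusted p between 0.00558 and 0.177 by edgeR. Leaving out 1 library gave values between -1.06 and -0.52. AGO5 had -0.48 in pol2a-1, -0.25 in pol2a-2, -0.62 in suvh2suvh9 and -0.67 in the triple mutant, with adjusted p between 0.217 and 0.735. AGO2 had -0.66 ± 0.24 in pol2a-2 (0.356), and AGO10 and AGO7 lay between -0.58 and 0.82 with standard errors between 0.41 and 0.84. By value AGO9, AGO1 and AGO5 were below WT in all 4 mutants, without a call, but leaving out 1 library turned the sign of AGO1 in suvh2suvh9 (up to 0.21) and of AGO5 in pol2a-2 (up to 0.02). Tapetum markers summed to between 218 and 446 CPM in mutant meiocytes, against 168 and 228 CPM in WT meiocytes, and their part in these values was not tested.

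**Figure D4:**
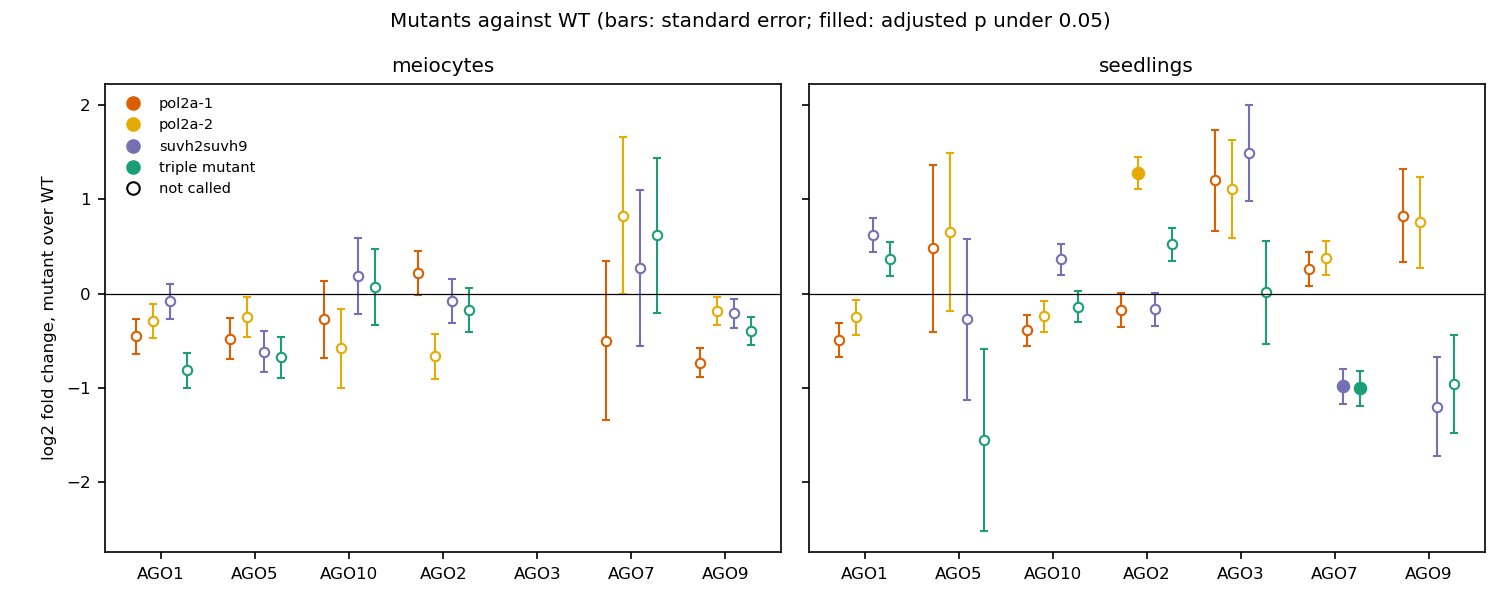
Points give the log2 fold change of each mutant over WT for 7 members in meiocytes (left, where AGO3 was not tested) and seedlings (right), with bars for the standard error; filled points have an adjusted p under 0.05. No point is filled in meiocytes, and in seedlings AGO2 is filled in pol2a-2 and AGO7 in suvh2suvh9 and the triple mutant.

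In seedlings 7 members were tested. As in meiocytes, counts at an unadjusted p have no share of all features beside them. In pol2a-1, 0 were called by edgeR (0.0269% of 22297 features), with 3 at an unadjusted p under 0.05 (AGO1 -0.49, AGO10 -0.39 and AGO3 1.20 on the log2 scale) and 0 by DESeq2; AGO1 passed without pol2a-2 replicate 1 or 2 (adjusted p = 0.0454 and 0.0476). In pol2a-2, AGO2 alone was called (2.62% of features, 1.69% higher). AGO2 rose 2.42-fold (log2 1.28 ± 0.17 SE, adjusted p = 0.00635), with 30.4 and 42.1 CPM in pol2a-2 seedlings against 15.5 and 12.8 CPM in WT seedlings. The call was lost without WT replicate 1 or 2 (0.0653 and 0.0717), and AGO1 gained one without pol2a-2 replicate 2 (0.0335). Summed meiocyte markers moved with AGO2, at 40.6 and 42.5 CPM in pol2a-2 seedlings against 12.5 and 14.2 CPM in WT seedlings. Of these 8 markers DMC1 alone was called in that comparison, and AGO9 and AGO5 were not called. The part of the markers in the rise of AGO2 was not tested.

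AGO7 fell in both genotypes with mutations in SUVH2 and SUVH9. In suvh2suvh9 it was called alone (10.9% of features, 5.49% lower), with 4.37 and 4.196 CPM against 7.26 and 9.73 CPM in WT, a 1.97-fold fall (log2 -0.98 ± 0.18 SE, adjusted p = 0.00935). In the triple mutant it was also called alone (13.3% of features, 6.08% lower), with 4.19 and 4.14 CPM, a 2.01-fold fall (-1.004 ± 0.19, 0.00776). The call in suvh2suvh9 was lost without WT replicate 2 (0.0712) or suvh2suvh9 replicate 2 (0.0758), and that in the triple mutant without WT replicate 2 (0.0585) or triple mutant replicate 1 (0.0659) or 2 (0.06235). Both were lost when all 20 libraries entered 1 fit (0.447 and 0.378). The share of chloroplast counts moved with AGO7, as given above, and its part in the fall was not tested.

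Other members came near the threshold in these seedlings, and the settings named here are only ones that gave a call. The chloroplast share given above also separated both genotypes from WT, and its part in these values was not tested. AGO1 in suvh2suvh9, at 222 and 219 CPM against 138 and 149 CPM in WT, had 0.62 ± 0.18 (adjusted p = 0.0578); it passed with DESeq2 (0.0227) and without pol2a-2 replicate 1 or 2 (0.006145 and 0.00614). AGO3 in suvh2suvh9 had 1.49 ± 0.51 (0.0946) and passed without WT replicate 1 (2.79, 0.0273). AGO2 in the triple mutant had 0.52 ± 0.17 (0.0751) and passed without pol2a-2 replicate 1 or 2 (0.0255 and 0.0303), and AGO1 there had 0.37 ± 0.18 (0.217) and passed without pol2a-2 replicate 1 (0.0489). AGO10 lay between -0.39 and 0.36 in the 4 mutants. AGO9 and AGO5, at under 2 CPM, had standard errors between 0.48 and 0.96, so that only large changes were detectable for them at this depth.

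**Figure D5:**
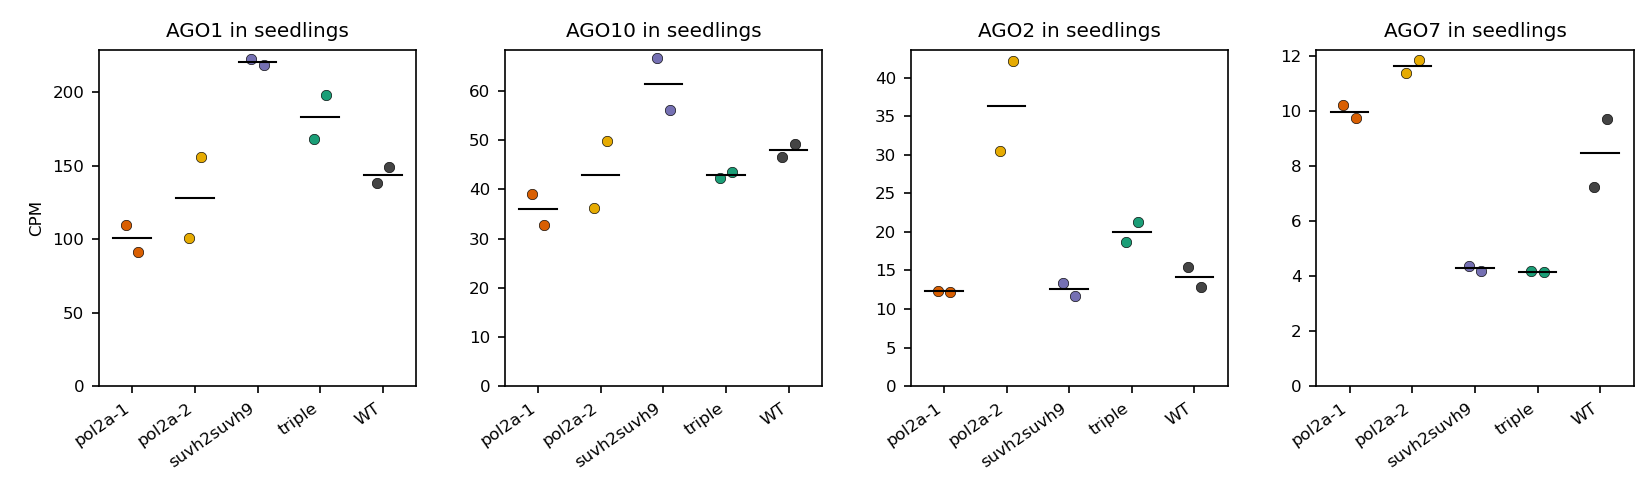
Points give the CPM of AGO1, AGO10, AGO2 and AGO7 in each seedling library of 5 genotypes, with lines at the means of 2 libraries and axes that start at 0. AGO2 is highest in pol2a-2, at 30.4 and 42.1 CPM, and AGO7 is lowest in suvh2suvh9 and the triple mutant, between 4.14 and 4.37 CPM.

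The triple mutant was set against its parents and pol2a-2 against pol2a-1. Percentages here are edgeR calls at an adjusted p, and counts at an unadjusted p have no such share. In meiocytes none was called by edgeR in triple mutant against suvh2suvh9 (0.0377% of features; 1 member at an unadjusted p under 0.05, 0 by DESeq2), in triple mutant against pol2a-1 (0.712%; 1 and 0) or in pol2a-2 against pol2a-1 (0.514%; 2 and 1). The values nearest to a call were those of AGO2 (-0.88 ± 0.24, adjusted p = 0.172; DESeq2 0.0462) and AGO9 (0.55 ± 0.15, 0.183) in pol2a-2 against pol2a-1. In seedlings, triple mutant against suvh2suvh9 had 0 called by edgeR (0.247%), with 3 at an unadjusted p under 0.05 (AGO10 -0.50, AGO2 0.69 and AGO3 -1.47) and 0 by DESeq2. AGO7 there had -0.02 ± 0.19 (0.987), at 4.19 and 4.14 CPM in the triple mutant against 4.37 and 4.196 CPM in suvh2suvh9.

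Against pol2a-1 seedlings, 3 of 7 members were called in the triple mutant (10.7% of features, 4.91% higher and 5.84% lower). Chloroplast genes held 0.0215% and 0.0443% of counts in triple mutant seedlings against 2.32% and 2.42% in pol2a-1 seedlings, and their part was not tested. AGO1 rose by 0.86 ± 0.18 (adjusted p = 0.0191), with 168 and 198 CPM against 109 and 91.3 CPM in pol2a-1; the call was lost without either pol2a-1 or either triple mutant library (0.0599 to 0.144). AGO2 rose by 0.70 ± 0.18 (0.0360), with 18.7 and 21.3 CPM against 12.3 and 12.3 CPM; this call was lost without any 1 library of WT, pol2a-1, suvh2suvh9 or the triple mutant (0.0501 to 0.196) and with a length offset (0.45, 0.0677). AGO7 fell, with a log2 difference of -1.27 ± 0.19 (0.00411), and kept its call without any 1 library but not with all 20 libraries in 1 fit (0.255). AGO9 had -1.79 ± 0.53 (0.0596) and passed without pol2a-2 replicate 1 or 2 (0.0475 and 0.0488). In pol2a-2 against pol2a-1 seedlings, AGO2 alone was called (0.386% of features, 0.233% higher): it rose by 1.45 ± 0.18 (0.0110), and the call was lost without either pol2a-1 library (0.107 and 0.169).

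Whether a mutant's effect differed between the tissues was tested as an interaction, the effect in meiocytes less that in seedlings. Here too, percentages are edgeR calls at an adjusted p, and counts at an unadjusted p have no such share. AGO2 with pol2a-2 gave -1.88 ± 0.29 (adjusted p = 0.00447; 1.02% of 24418 features called, 0.303% lower): its log2 effect was -0.66 in meiocytes and 1.28 in seedlings. This call held without any 1 library (0.00361 to 0.0398) and was lost when only the 4 groups compared were fitted (0.148). The chloroplast share given above separated triple mutant from WT seedlings, and its part in the next value was not tested. AGO1 with the triple mutant gave -1.19 ± 0.28 (0.0256, with 3.73% of features called, 1.01% lower), its effect being -0.81 in meiocytes and 0.37 in seedlings. It was lost without WT meiocyte replicate 1, pol2a-1 meiocyte replicate 1, or any 1 of the other 6 libraries named here, both WT seedling, both triple mutant meiocyte and both triple mutant seedling libraries (0.0534 to 0.115). With pol2a-1, 0 members were called by edgeR (0.508% of features; 1 at an unadjusted p under 0.05, AGO9 with -1.38 ± 0.41 and an adjusted p of 0.185; 1 by DESeq2), and with suvh2suvh9 0 (0.926%; 2 and 0).

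The partner genes and targets were also compared between mutants and WT. In meiocytes 0 genes of these lists were called in any mutant by edgeR. At an unadjusted p under 0.05 there were 8 of 64 in pol2a-1, 7 in pol2a-2, 3 in suvh2suvh9 and 15 in the triple mutant. The share of all features at that unadjusted cutoff is not given, so such counts have no background. The HD-ZIP III genes had positive values in 5 of 5 cases in each mutant. Each mutant was set against the same WT libraries, and the share of all features with positive values is not given here. Median log2 values were 0.82 in pol2a-1, 0.72 in pol2a-2, 0.81 in suvh2suvh9 and 1.35 in the triple mutant. Summed levels were low, at 13.5 to 17.0, 16.8, 15.1 to 16.9 and 21.8 to 29.1 CPM in that order, against 8.12 and 9.65 CPM in WT. Leaf and shoot meristem markers were highest in the triple mutant too: leaf markers summed to between 888 and 1480 CPM in triple mutant meiocytes against 271 and 581 CPM in WT meiocytes, and shoot meristem markers to between 2.83 and 3.83 CPM against 0.430 and 0.712 CPM, and their part in these values was not tested. In pol2a-1 seedlings 0 list genes were called by edgeR (14 at an unadjusted p under 0.05). In pol2a-2 seedlings 2 of 64 list genes were called (3.12%, beside 2.62% of all features). DRB3, a double-stranded RNA binding protein, fell there (-0.68 ± 0.13, adjusted p = 0.0302), as did TOE1 (-0.59, 0.0478). DRB3 lost its call without either WT library, pol2a-2 replicate 1 or any suvh2suvh9 or triple mutant library (0.0537 to 0.226), and TOE1 without any 1 library other than those of pol2a-2 (0.0669 to 0.279).

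In seedlings 6 of 64 list genes were called in suvh2suvh9 (9.38%) and 11 of 64 in the triple mutant (17.2%), beside 10.9% and 13.3% of all features. Both genotypes had the low chloroplast share given above and were set against the same WT libraries. The part of that share in these calls was not tested. Among 16 biogenesis genes DRB3 alone was called and rose in both (1.27, adjusted p = 3.58e-04, and 0.91, 0.00224). Of 7 secondary siRNA genes RDR1, an RNA-dependent RNA polymerase of antiviral defence, fell in suvh2suvh9 (-1.05, 0.00236) and in the triple mutant (-1.02, 0.00254), SDE5 in both (-0.67, 0.0372, and -0.60, 0.0490) and SGS3 in the triple mutant (-0.90, 0.0300). Of 26 microRNA targets SPL3, a target of miR156, fell by the most (-1.31, 0.00442, and -1.98, 5.82e-04), SPL9, another target of miR156, fell as well (-1.03, 0.00805, and -1.21, 0.00368), and AFB2, an auxin receptor, rose (0.66, 0.0143, and 0.62, 0.0168). In the triple mutant AMP1 fell (-0.76, 0.00807), CSD2 rose (0.52, 0.0422) and AGO6 rose (1.14, 0.0343). The calls of DRB3, RDR1 and SPL3 in both genotypes and of SPL9 in the triple mutant held without any 1 library. In suvh2suvh9 SPL9 lost its call without WT replicate 2 or suvh2suvh9 replicate 2 (0.0651 and 0.0751), and AFB2 without either WT library or suvh2suvh9 replicate 2 (0.0986 to 0.118). In the triple mutant AFB2 and SGS3 lost theirs without either WT or either triple mutant library (0.0868 to 0.115 and 0.102 to 0.180), AMP1 without WT replicate 2 or either triple mutant library (0.0622 to 0.0816), and AGO6 without any WT, suvh2suvh9 or triple mutant library (0.0530 to 0.171). SDE5 in both and CSD2 lost theirs without any 1 library other than those of pol2a-2 (0.0538 to 0.311 and 0.0537 to 0.240). The HD-ZIP III genes and the targets of trans-acting siRNAs had 0 called in both genotypes by edgeR.

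Between the mutants, 9 of 64 list genes were called in triple mutant against pol2a-1 seedlings (14.1%, beside 10.7% of all features). In pol2a-2 against pol2a-1 seedlings 1 of 64 was called (1.56%, beside 0.386%). For the first comparison, the part of the chloroplast share given above was not tested. In the first, SPL3 fell by 2.47 on the log2 scale (adjusted p = 1.85e-04) and DRB3 rose by 0.80 (0.00628), and both held without any 1 library. SPL9 fell (-1.25, 0.00474; without triple mutant replicate 2, 0.0516), RDR1 fell (-0.78, 0.0128; without pol2a-1 replicate 1 or either triple mutant library, 0.0702 to 0.120), and AMP1 fell (-0.66, 0.0209; without either pol2a-1 or either triple mutant library, up to 0.163). DRB5 rose (0.99, 0.0157) and AGO6 rose (1.43, 0.0243), both lost without pol2a-1 replicate 2 or either triple mutant library (0.0685 to 0.106 and 0.0869 to 0.130). HB8 rose (1.39, 0.0219; without either pol2a-1 or either triple mutant library, 0.0667 to 0.158), and TOE2 rose (0.56, 0.0477; without any 1 library other than those of pol2a-2, 0.0720 to 0.274). In the second, DRB3 fell (-0.79, 0.0477), and was lost without any 1 library other than pol2a-2 replicate 1 (0.0520 to 0.281). In the interactions with tissue, 5 of 64 list genes were called with the triple mutant by edgeR (7.81%, beside 3.73% of all features). With the other 3 genotypes none was called, and 10 of 64 had an unadjusted p under 0.05 in each. The share of all features at that unadjusted cutoff is not given. With the triple mutant AMP1 (1.68 ± 0.30, 0.00536), FBW2 (1.54 ± 0.37, 0.0290), REV (2.07 ± 0.51, 0.0335) and SPL3 (2.42 ± 0.61, 0.0354) had positive differences, and AGO6 a negative one (-1.74 ± 0.38, 0.0178).

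Finally, the 2 genes most like each tested member over the 20 libraries were found among 22149 nuclear genes, by the root mean square difference of mean-centred log2 CPM, in which the tissue difference weighs most. For AGO9 these were KOM (0.541), a rhomboid-like protease gene known from pollen development, and AT2G28090 (0.578). For AGO5 they were KNU (0.559), a zinc finger repressor of WUSCHEL in flowers, and AT5G37470 (0.609). KOM averaged 503 CPM in meiocytes and 0.634 CPM in seedlings, and KNU 53.3 CPM in meiocytes and 0.0289 CPM in seedlings. For AGO1 they were AT3G06480 (0.204) and AT1G55750 (0.213), and for AGO10 RHC1A (0.279) and CSLC5 (0.294). For AGO2 they were AT4G15830 (0.337) and POLD4 (0.337), the gene of a small subunit of DNA polymerase delta, for AGO7 AT1G28150 (0.453) and ABA4 (0.460), and for AGO3 AT3G47180 (0.576) and AT1G13380 (0.577). The closest partner of AGO1 and of AGO10 thus lay nearer than that of AGO9 or AGO5, whose seedling counts are low. These likenesses are descriptions, since the libraries share tissue and genotype.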

How the data were processed

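Per the labels' protocols, polyadenylated RNA was made into libraries with version 2 of the TruSeq RNA kit, which keeps no strand, so reads of genes on opposite strands cannot be separated. Each library was deposited as whole-number counts for genes and transposable elements. Tools in the submitters' processing notes are featureCounts 2.0.0, STAR 2.7.9a, cutadapt 3.4 and DESeq2 1.30.1, with the build TAIR10. The sources used here do not say how reads with several hits were counted.

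Samples were grouped by title. Each file holds 58844 features, and levels are CPM over all of them. Counts were tested with edgeR 4.0.16 (R 4.3.3, limma 3.58.1): filterByExpr (minimum count 10), TMM scaling, 1 coefficient per group, and two-sided quasi-likelihood tests with Benjamini-Hochberg adjustment over all features kept, called at an adjusted p under 0.05. The 10 libraries of a tissue shared 1 fit (21214 features in meiocytes, 22297 in seedlings), and tissue differences and interactions used all 20 libraries (24418 features); 23 comparisons were made. The fits were tested on simulated data. Of the 8 members, 6, 7 and 7 passed the filter in these fits.

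Replicates are pools, and no label ties them to separate sowings, so the p-values reflect the spread among these libraries alone, which may be technical. The members and all gene lists were chosen with earlier results of these data known. The naming rule took all members, up to 4 called members of each list per comparison by lowest adjusted p (for tissue differences, in WT only; in mutants counts alone are given), and the 2 most alike genes of each tested member; TMM-scaled log2 CPM with a prior count of 2 served for likeness. Alternatives were DESeq2 1.42.0, its size factors, no filter, other libraries in the fit, a replicate block, organelle genes left out, a length offset (lowess span 0.3), pol2a-1 and pol2a-2 joined, and each library left out. Sequences and positions came from the RefSeq annotation of TAIR10.1, whose exon lengths for the 8 genes equalled those in the files, and were read with Python 3.11.15. Sequences upstream of the genes are not reported here.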

Additional observations from a re-analysis of the deposited data

Results flagged for a closer look

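The effect of a genotype on a member differed between the tissues in 2 cases, by the test of the interaction itself. For AGO2 with pol2a-2 the log2 effect in meiocytes less that in seedlings was -1.879 (adjusted p = 0.00447, edgeR), with 13.1 and 14.6 CPM in pol2a-2 meiocytes against 20.6 and 21.0 CPM in WT meiocytes, and 30.4 and 42.1 CPM in pol2a-2 seedlings against 15.5 and 12.8 CPM in WT seedlings. For AGO1 with the triple mutant it was -1.189 (adjusted p = 0.0256, edgeR), with 371 and 421 CPM in triple mutant meiocytes against 765 and 509 CPM in WT meiocytes, and 168 and 198 CPM in triple mutant seedlings against 138 and 149 CPM in WT seedlings. The AGO1 call was lost in 8 of the 20 fits that left out 1 library. In both cases the 2 libraries of a mutant lay on the same side of both WT libraries within each tissue.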

How the results depend on the processing

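The counts of called members in the 23 comparisons moved by over 1.5 times as follows, with the reported count in brackets. Without a filter on low counts there were 1 (0) in pol2a-1 and 2 (0) in triple mutant meiocytes against WT, 1 (0) in triple mutant against suvh2suvh9 meiocytes, 1 (0) in pol2a-1 and 3 (1) in suvh2suvh9 seedlings against WT, 2 (0) in triple mutant against suvh2suvh9 seedlings and 1 (0) in the interaction with pol2a-1. With a length offset there were 2 (1) in suvh2suvh9 and 3 (1) in triple mutant seedlings. With all 20 libraries in 1 fit there were 1 (0) in triple mutant meiocytes, 1 (0) in pol2a-2 against pol2a-1 meiocytes, 0 (1) in suvh2suvh9 and 0 (1) in triple mutant seedlings. With only the groups compared there were 2 (0) in triple mutant against pol2a-1 meiocytes, 1 (0) in pol2a-1, 0 (1) in pol2a-2, 2 (1) in suvh2suvh9 and 3 (1) in triple mutant seedlings, 0 (1) in pol2a-2 against pol2a-1 seedlings and 0 (1) in the interaction with pol2a-2. The DESeq2 Wald test gave 1 (0) in pol2a-1 and 1 (0) in triple mutant meiocytes, 1 (0) in pol2a-2 against pol2a-1 meiocytes, 2 (1) in suvh2suvh9 seedlings and 1 (0) in the interaction with pol2a-1. Where another set of libraries or features changed a count, the cause was not tested. Smaller moves were 4 (3) in triple mutant against pol2a-1 seedlings without a filter and with only the groups compared, where AGO9 was gained; between the tissues 6 (7) in pol2a-1 and 5 (7) in the triple mutant without a filter, 7 (6) in WT and suvh2suvh9 and 6 (7) in the triple mutant with the length offset, 5 (6) in suvh2suvh9 with only the groups compared, and 6 (7) in the triple mutant without organelle genes. In triple mutant against pol2a-1 seedlings AGO9 replaced AGO2 with the length offset and AGO7 with all 20 libraries. No called value reversed under any of these settings.

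Leaving out 1 library at a time gave these ranges: between the tissues 6 to 6 in WT, 7 to 7 in pol2a-1 and pol2a-2, 4 to 7 in the triple mutant and 5 to 6 in suvh2suvh9; against WT in meiocytes 0 to 1 in pol2a-1 and the triple mutant and 0 to 0 in pol2a-2 and suvh2suvh9; against WT in seedlings 0 to 1 in pol2a-1, 0 to 2 in pol2a-2 and suvh2suvh9 and 0 to 3 in the triple mutant. They were 0 to 0 for triple mutant against suvh2suvh9 in both tissues, for triple mutant against pol2a-1 and pol2a-2 against pol2a-1 in meiocytes and for the interactions with pol2a-1 and suvh2suvh9, 1 to 4 for triple mutant against pol2a-1 and 0 to 1 for pol2a-2 against pol2a-1 in seedlings, 0 to 1 for the interaction with the triple mutant and 1 to 1 for that with pol2a-2.

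Replicate numbers did not pair the samples: deviations of same-numbered libraries correlated between -0.18 and 0.223 in meiocytes and between -0.172 and 0.154 in seedlings, over 0.1 in 2 of 10 pairs of groups each. With the number as a replicate block the counts were those reported, except 2 (3) in triple mutant against pol2a-1 seedlings, where AGO2 had an adjusted p of 0.0589, and 5 (7) between the tissues in the triple mutant (AGO2 0.0674, AGO3 0.0650). Joining pol2a-1 and pol2a-2 as 1 group gave 0 called members in both tissues. DESeq2 size factors moved the median of all features by -0.0962 to -0.233 on the log2 scale between the tissues, and the length offset by 0.268 to 0.465. Alternatives for the gene lists were chosen after seeing the data; of 87 called list and marker genes between the WT tissues 74 kept their call whichever library was left out, and interaction calls of list genes were not rerun. With 2 libraries a group, low-count members (AGO3, AGO5, AGO8 and AGO9 in seedlings, AGO7 in meiocytes) are limited by depth.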
